A study of Homo sapiens
Mus musculus and Mus musculus and Homo sapiens with 16 samples.

Results

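A group of 10 genes that set or mark the lineage of bone marrow stroma was followed in MS-5 cells grown alone and under adhering lymphoma cells. They are the adipogenic regulators Pparg, Cebpa, Cebpb, Cebpd and Medag, the osteogenic regulators Runx2 and Sp7, and the mesenchymal receptors Lepr, Pdgfra and Pdgfrb. The 10 were listed by symbol, with earlier results of these data known. Each symbol was found once among the 49671 mouse genes, and 8 of them were among the 12201 genes with enough counts to be tested.

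MS-5 is a stromal cell line from mouse bone marrow and REC-1 is a human mantle cell lymphoma line. For the coculture, 500000 MS-5 cells were seeded and 5000000 REC-1 cells were added on top for 24 h. The libraries called Adh hold the adherent layer, that is MS-5 cells with the REC-1 cells attached to them, and their reads were split by species, so that mouse counts from 4 Adh libraries could be set against mouse counts from 4 libraries of MS-5 cells kept without lymphoma cells (MS-5 alone). REC-1 cells without stroma (Sep) and REC-1 cells floating above it (Susp), 4 libraries each, were used only for the human genes. The labels give no engineered allele and no drug for these groups, and both arms rest on 1 stromal line. The labels do not say whether the replicates were separate cultures. Figure legends of the paper describe the expression data of the lymphoma cells, adherent ones included, as independent experiments. The Adh libraries are part of those data. The legends do not say this of MS-5 alone, where the spread may be technical. The p-values measure the spread between these libraries.

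Marrow stromal cells can become fat or bone cells. In textbook accounts Cebpb and Cebpd act early in adipogenesis and switch on Pparg and Cebpa, which maintain each other and the genes of fat storage, while Runx2 and then Sp7 (osterix) drive the osteoblast fate. Lepr, the leptin receptor, marks perivascular marrow stroma that makes CXCL12, and Pdgfra and Pdgfrb are tyrosine kinase receptors for platelet-derived growth factors.

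Mouse counts per library ranged from 10097555 to 17397651 in MS-5 alone and from 29495404 to 34615602 in Adh, and human counts made up 18.3% to 28.2% of both species in the Adh libraries. Of the stroma markers, Col1a1, Col1a2, Vim, Cxcl12, Vcam1 and Pdgfrb were read in all 8 libraries (Col1a1 at 1105 to 1558 CPM, mouse counts scaled to a common library total), but Thy1 was at 0 in all 8. Of 16 markers of blood, endothelium and epithelium, 9 were at 0 in all 8 libraries, Ptprc, Cdh5 and Epcam among them, and the 16 summed to 4.28 to 6.25 CPM in MS-5 alone and 4.84 to 6.70 CPM in Adh. The mouse counts were mostly even numbers (35.0% to 39.4% of values above 0 were odd), so 2 counts are mostly 1 read pair.

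The 3 C/EBP genes share a DNA-binding domain, and their coding sequences are most alike there. The start of the basic region and leucine zipper is shown because reads of these genes are hardest to tell apart there, from mouse GENCODE M21 transcripts on GRCm38, plus strand, with capitals where all 3 genes have the same base.
Cebpa, chr7:35120283-35120372: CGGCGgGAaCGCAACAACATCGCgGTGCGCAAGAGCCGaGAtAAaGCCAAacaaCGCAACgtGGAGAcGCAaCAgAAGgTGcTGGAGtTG
Cebpb, chr2:167689703-167689792: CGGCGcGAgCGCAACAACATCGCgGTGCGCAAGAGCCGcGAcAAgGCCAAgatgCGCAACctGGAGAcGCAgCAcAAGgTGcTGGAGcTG
Cebpd, chr16:15887913-15888002: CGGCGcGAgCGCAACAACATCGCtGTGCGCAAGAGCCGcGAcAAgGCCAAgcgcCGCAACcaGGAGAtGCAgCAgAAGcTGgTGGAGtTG
In this window 72 of 90 bases were the same in all 3 genes. The longest identical stretch of coding sequence was 29 bases between Cebpa and Cebpb, 27 between Cebpb and Cebpd and 14 between Cebpa and Cebpd, each shorter than a single read of these libraries.

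MS-5 cells alone held both adipogenic and osteogenic factors, with Pdgfrb and Pparg the highest of the 10. Levels are compared between genes per length, as CPM per kilobase of exon (RPKM). Pdgfrb stood at 55.3 ± 1.64 RPKM (SD, n = 4), above 92.8% of tested genes, and Pparg at 39.9 ± 4.44. Cebpa (15.8 ± 2.41), Pdgfra (15.7 ± 1.10), Cebpb (12.6 ± 2.10) and Runx2 (12.2 ± 0.596) followed, and each of these overlapped its neighbour in the order. Medag at 7.33 ± 1.03 RPKM lay near the middle of the tested genes and Cebpd at 1.86 ± 0.5999 was the lowest of the 8. In Adh the order of the clear steps was the same, except that Medag reached 11.02 ± 1.31 RPKM and its libraries then overlapped those of Runx2. Exon lengths came from a later annotation release than the one used for counting, and 36.7% of Medag, 20.7% of Cebpb and 15.0% of Cebpd exon bases also lie in exons of another gene. Counted over unshared bases alone, the RPKM means in MS-5 alone were 11.6 for Medag, 15.9 for Cebpb and 2.19 for Cebpd. On that scale the MS-5 alone libraries of Medag (9.60 to 13.3 RPKM) already overlapped those of Runx2 (12.5 to 13.9 RPKM). The step between Runx2 and Medag thus depends on the length used. How the counting treated reads in shared bases was not tested.

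**Figure D1:**
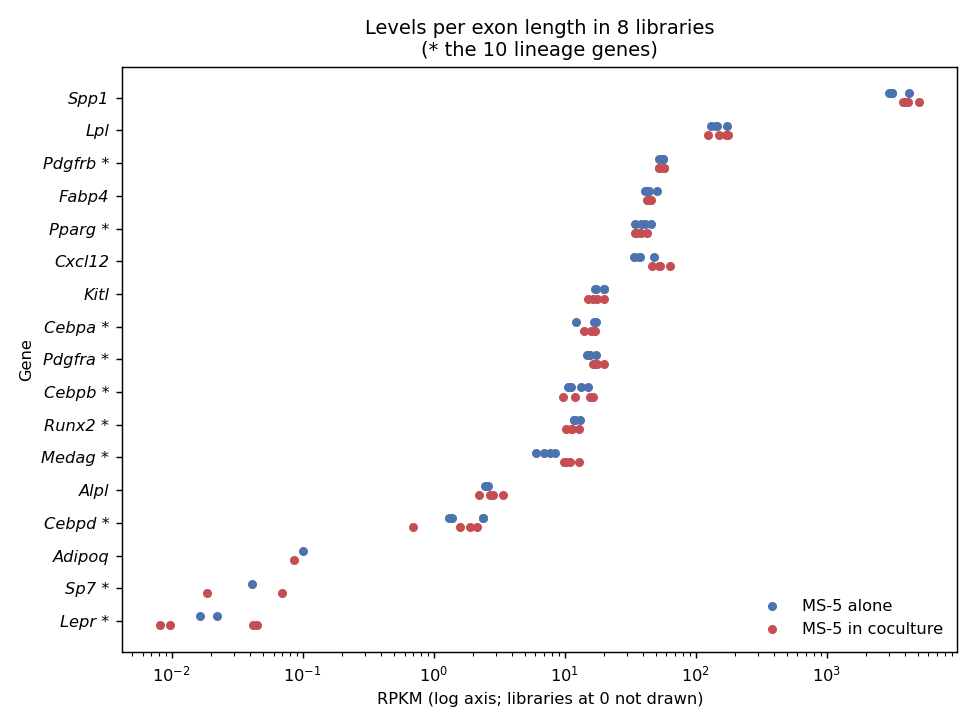
Level per exon length (RPKM, log axis) of the 10 genes (starred) and of named genes of the same pathways, with a point per library for MS-5 alone and Adh. Libraries at 0 and genes with a mean of 0 in MS-5 alone are not drawn, and Pdgfrb and Pparg lie above the other 8 of the 10 genes.

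Sp7 and Lepr were at the edge of detection in these cells. Sp7 (osterix, ENSMUSG00000060284, chr15:102356606-102367182) had 2, 0, 0 and 0 counts in MS-5 alone and 8, 0, 0 and 2 in Adh, and Lepr (ENSMUSG00000057722, chr4:101717404-101815352) had 0, 0, 2 and 2 against 10, 2, 2 and 10. A count of 0 allows up to 3 counts, which is 0.0867 to 0.297 CPM in these libraries, or up to 0.173 to 0.594 CPM if a read pair is taken as the unit. Neither was tested and no fold is given, as the Adh libraries were also the deeper ones. The line was thus read as Pdgfra- and Pdgfrb-positive, with Lepr and Sp7 at or near 0.

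The comparison of Adh with MS-5 alone asks whether the lineage genes differed in coculture with REC-1 cells. Contact and other effects of coculture cannot be told apart in this design. The labels give no seeded cell number and no culture time for MS-5 alone. A gene was called where edgeR's quasi-likelihood test gave an adjusted p no higher than 0.05 and the fold reached 1.5, and this rule took 25 of 12201 genes (0.205%), 5 of them higher in Adh (0.041%). Of the 8 tested lineage genes Medag was called, higher in Adh, and the other 7 were not. With no fold minimum 94 genes (0.77%) passed, and Medag was again the only 1 of the 8. The libraries of the groups did not overlap for 822 genes (6.74%) and, of the 8, for Medag. The lineage genes were chosen with earlier results of these data known. These counts and the call of Medag therefore only describe these libraries. The 8 genes were split evenly, 4 higher and 4 lower in Adh, with a median log2 fold change of -0.00, the same to 2 decimals as over all tested genes. In bulk RNA, fewer cells of a kind and less RNA per cell cannot be told apart.

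**Figure D2:**
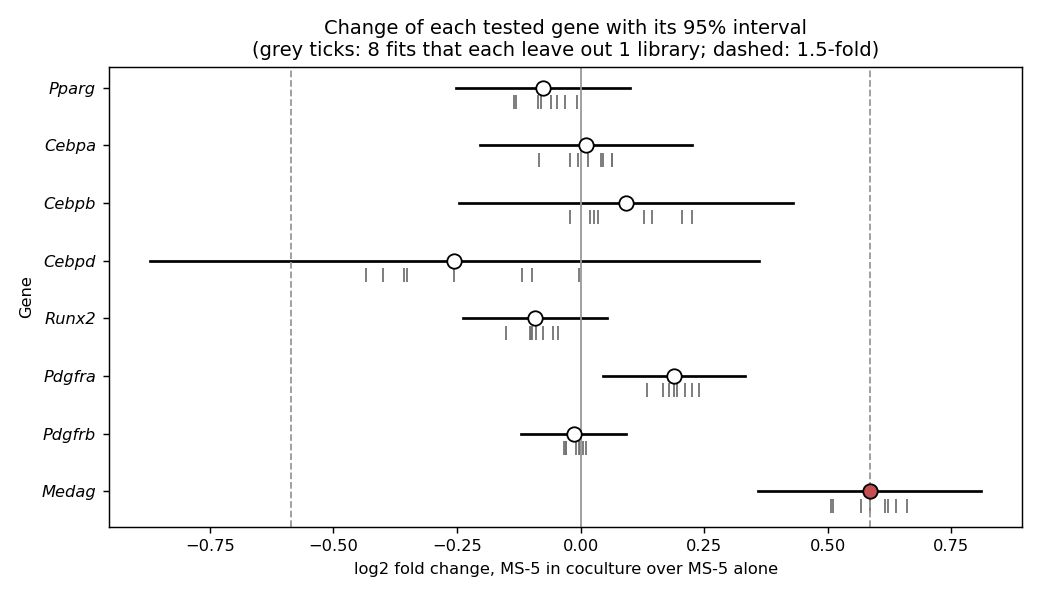
Log2 fold change, Adh minus MS-5 alone, of the 8 tested genes with its 95% interval, the 8 estimates with 1 library left out (grey ticks) and the 1.5-fold limits (dashed). Medag (filled red) is the called gene and sits on the limit, and 6 of the other 7 intervals lie inside the limits while that of Cebpd does not.

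Medag, a gene named for its part in adipogenesis of mesenteric fat, rose. It lies at chr5:149411749-149431723 on the plus strand (ENSMUSG00000029659). It read 33.4, 27.7, 30.8 and 24.0 CPM in replicates 1 to 4 of MS-5 alone and 50.9, 43.5, 39.2 and 40.9 CPM in Adh. Every Adh library was above every library of MS-5 alone, and the means were 29.0 ± 4.06 and 43.6 ± 5.18 CPM (SD, n = 4 each). In edgeR's quasi-likelihood test the log2 fold change was 0.59 (SE 0.11, 95% interval 0.36 to 0.81) with adjusted p = 0.0147. The fitted fold was 1.5001 (interval 1.28 to 1.75), only just past the minimum of 1.5, and the call was lost in 6 of 18 other settings, 5 times for the fold and 3 times for the adjusted p. Over all settings Medag was higher in Adh, and with a library left out the log2 fold change ran from 0.51 to 0.66. Without replicate 2, 3 or 4 of MS-5 alone it was 0.57, 0.62 and 0.51 (edgeR adjusted p = 0.0693, 0.0532 and 0.0573), and without Adh replicate 1 it was 0.51 (edgeR adjusted p = 0.0309), under the fold minimum. Gm20488, on the same strand, shares 1453 exon bases with Medag and had 8 counts in Adh replicate 2 and 0 in the other 7 libraries.

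**Figure D3:**
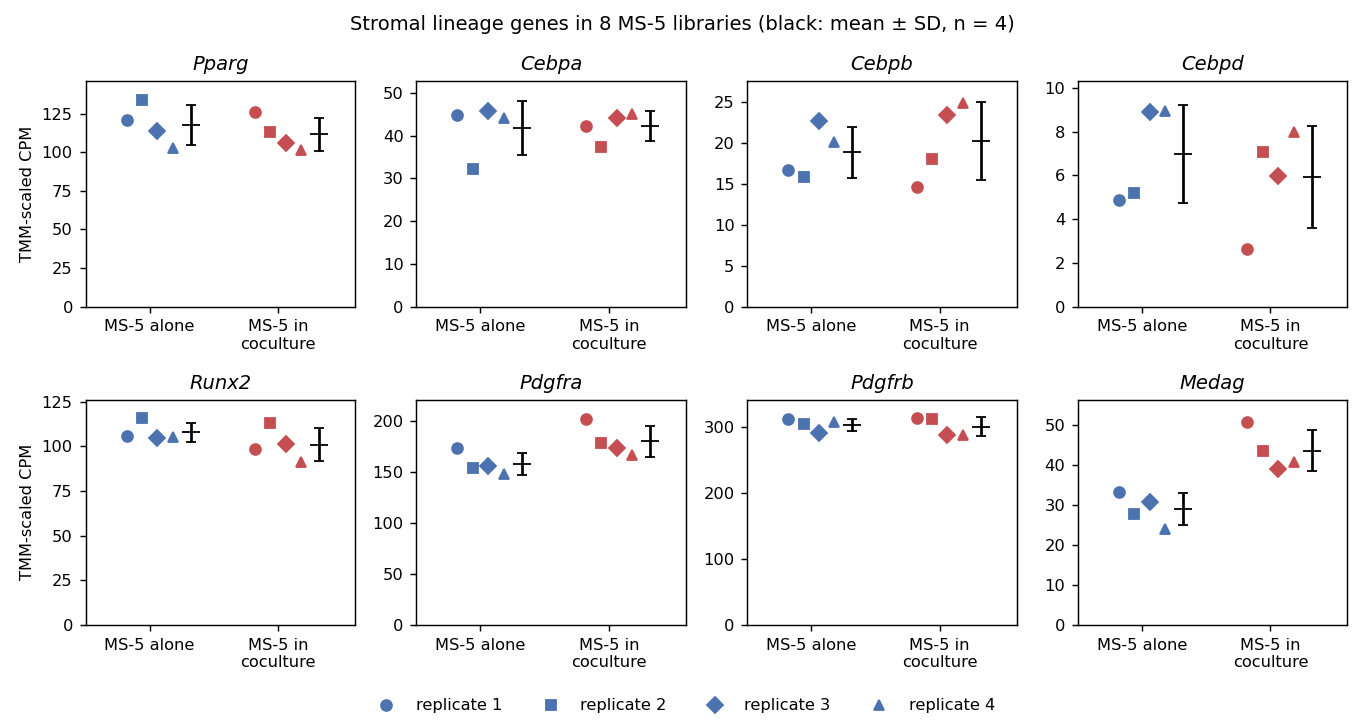
Scaled counts (CPM) of the 8 tested genes in each of the 4 MS-5 alone and 4 Adh libraries (marker shape, replicate number; black, mean ± SD; axes start at 0). For Medag the Adh libraries lie between 39.2 and 50.9 CPM, above the 24.0 to 33.4 CPM of MS-5 alone, and for the other 7 genes the groups overlap.

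Srr and Krt13 were among the 3 genes, of 8892 candidates, whose profile over the 8 libraries lay closest to that of Medag. The root mean square difference of their centred log2 CPM from Medag was 0.108 and 0.110. Because they were picked by this likeness, a change similar to that of Medag followed from the choice. Krt13 passed the test (38.9 ± 2.93 against 59.0 ± 4.90 CPM, log2 fold change 0.60, edgeR adjusted p = 0.00168), though its fold fell under 1.5 when replicate 2 or 4 of MS-5 alone or replicate 2 or 4 of Adh was left out (log2 fold change 0.57, 0.57, 0.57 and 0.58). Srr had a log2 fold change of 0.44 (edgeR adjusted p = 0.125) and was not called.

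Pparg and Cebpa, the central pair of adipogenesis, were not called. Pparg (ENSMUSG00000000440, chr6:115360951-115490399), the nuclear receptor that commits cells to fat, read 121.4, 133.9, 113.8 and 102.7 CPM in MS-5 alone and 126.4, 113.0, 106.4 and 101.3 CPM in Adh. The 2 ranges overlapped over most of their length. Its log2 fold change was -0.08 (SE 0.08, interval -0.25 to 0.10, edgeR adjusted p = 0.793). Cebpa (ENSMUSG00000034957, chr7:35119293-35121928) read 44.8, 32.2, 45.8 and 44.0 CPM in MS-5 alone and 42.3, 37.4, 44.1 and 45.1 CPM in Adh. Replicate 2 was the lowest of both groups. The Cebpa log2 fold change was 0.01 (SE 0.10, interval -0.20 to 0.23, edgeR adjusted p = 0.985), and it was -0.08 without replicate 2 of MS-5 alone.

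The early C/EBP factors varied more between replicates. Cebpb (ENSMUSG00000056501, chr2:167688915-167690418) read 16.7, 15.9, 22.7 and 20.2 CPM in MS-5 alone and 14.6, 18.04, 23.5 and 24.9 CPM in Adh. Replicates 3 and 4 were higher than 1 and 2 in both groups. The log2 fold change of Cebpb was 0.09 (SE 0.16, interval -0.25 to 0.43, edgeR adjusted p = 0.887). Cebpd (ENSMUSG00000071637, chr16:15887286-15891031) read 4.88, 5.18, 8.91 and 8.92 CPM in MS-5 alone and 2.63, 7.08, 5.98 and 7.98 CPM in Adh. Replicate 1 was the lowest of both groups for Cebpd. Its log2 fold change was -0.26 (SE 0.29, interval -0.87 to 0.36, edgeR adjusted p = 0.799), so a change of over 1.5-fold could not be told from none, and without Adh replicate 1 the estimate was -0.00. Cebpb shares exon bases with Tmem189 and Cebpd with Spidr, both on the opposite strand, and the library kit does not mark strand.

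Runx2, the master regulator of osteoblasts, was not called either. It lies on the minus strand (ENSMUSG00000039153, chr17:44495987-44814797) and read 104.4 to 115.5 CPM in MS-5 alone and 91.0 to 113.1 CPM in Adh. The means were 107.7 ± 5.27 and 100.9 ± 9.22 CPM, with a log2 fold change of -0.09 (SE 0.07, interval -0.24 to 0.05, edgeR adjusted p = 0.665). The interval excludes a change of 1.5-fold in either direction.

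The PDGF receptors, which bind growth factors for mesenchymal cells, were both well expressed. Pdgfra (ENSMUSG00000029231, chr5:75152292-75198215) read 173.4, 153.3, 155.5 and 148.1 CPM in MS-5 alone and 201.6, 178.0, 173.2 and 166.1 CPM in Adh. The means were 157.6 ± 10.99 and 179.7 ± 15.4 CPM, and replicate 1 of MS-5 alone lay among the Adh libraries. The log2 fold change was 0.19 (SE 0.07, interval 0.05 to 0.33, a fold of 1.14), and it missed the threshold with edgeR adjusted p = 0.268. Pdgfrb (ENSMUSG00000024620, chr18:61045150-61085061) read 290.3 to 311.1 CPM in MS-5 alone and 287.5 to 313.1 CPM in Adh. Its log2 fold change of -0.01 (SE 0.05, interval -0.12 to 0.09, edgeR adjusted p = 0.954) was the most precisely measured of the 8.

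Ratios of 2 genes within a library do not depend on library scaling. The log2 ratio of Pdgfra to Pdgfrb was -0.84, -0.99, -0.90 and -1.05 in MS-5 alone and -0.63, -0.81, -0.73 and -0.79 in Adh. The groups did not overlap, and the mean moved by 0.20, from a count ratio of 0.519 to 0.598. The two-sided exact permutation p was 0.0286, the smallest that 4 against 4 can give, and 0.114 after adjustment over the 4 ratios compared. The other ratios overlapped between groups: Cebpa to Cebpb had means of 1.14 and 1.09 (exact permutation p = 0.714), Cebpd to Cebpb -1.48 and -1.86 (exact permutation p = 0.229) and Pparg to Runx2 0.13 and 0.15 (exact permutation p = 0.857). None of the 4 passed 0.05 after adjustment.

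**Figure D4:**
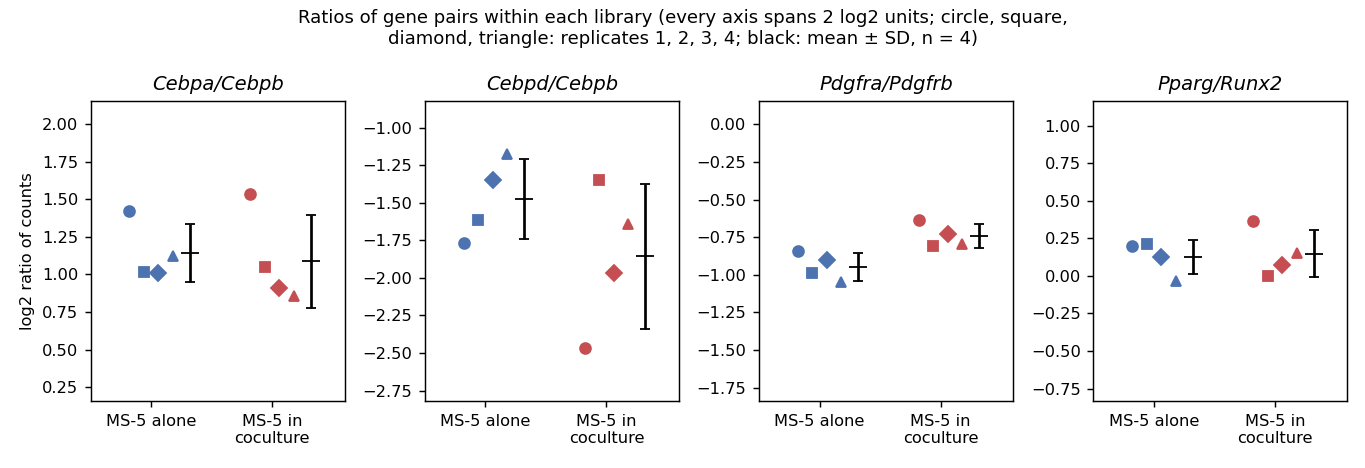
Log2 ratio of the counts of 2 genes within each library, for 4 ratios, in MS-5 alone and Adh, with mean ± SD in black. Each vertical axis spans 2 log2 units, and the groups are apart for Pdgfra to Pdgfrb and overlap for the other 3.

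Of the wider lineage programmes, no gene of the adipocyte, osteoblast, chondrocyte, mesenchymal or PDGF and leptin lists was called by edgeR or by DESeq2. For adipocytes this covers 15 tested regulators, 14 products and 12 inhibitors, of which 0, 2 and 1 had an unadjusted p under 0.05 in edgeR, beside 1374 of all 12201 tested genes (11.3%). Fabp4, the fatty acid carrier of fat cells, was at 200.7 and 197.1 CPM (log2 fold change -0.03, edgeR adjusted p = 0.930) and Lpl, a lipase of fat tissue, at 1551 and 1633 CPM (0.07, edgeR adjusted p = 0.833). Adipoq, a hormone of mature fat cells, had 2 counts in replicate 1 of MS-5 alone, 4 in replicate 1 of Adh and 0 elsewhere.

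The osteoblast lists held 15 tested regulators and 11 products, 2 of each with an unadjusted p under 0.05, and the chondrocyte list 4 tested genes, 1 of them under 0.05 (11.3% of all tested genes). Alpl, the alkaline phosphatase of early osteoblasts, was at 10.2 and 11.2 CPM (log2 fold change 0.13, edgeR adjusted p = 0.771). Spp1 (osteopontin), a secreted matrix protein, was at 5578 and 7039 CPM (0.34, edgeR adjusted p = 0.186). Its edgeR adjusted p depended on the setting: 4.93e-06 with the replicate number as a block and 4.17e-14 with no filter on low counts. With a library left out the edgeR adjusted p of Spp1 ran from 0.0114 to 0.437. The fold of Spp1 stayed under the minimum in each setting. Bglap (osteocalcin) and Sox9, the regulator of cartilage, were at 0 in all 8 libraries, and Bglap has near-identical copies that leave its 0 uncertain. Enpp1, a product of mineralizing cells, was called when replicate 1 of MS-5 alone was left out, and no other osteoblast gene was called under any setting tried.

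Of 16 tested mesenchymal and reticular genes 4 had an unadjusted p under 0.05, against 11.3% of all tested genes. Cxcl12, the chemokine that holds B cells in marrow, was at 321.4 ± 50.2 CPM in MS-5 alone and 441.8 ± 57.6 CPM in Adh, and passed the adjusted p (0.0486 in edgeR) with a log2 fold change of 0.46, under the fold minimum. Its groups overlapped, and with a library left out its log2 fold change ran from 0.37 to 0.57 and its edgeR adjusted p from 0.00406 to 0.172, passing only without replicate 1 of MS-5 alone or replicate 2 of Adh. Kitl, the stem cell factor, was at 110.3 and 103.0 CPM (log2 fold change -0.10, edgeR adjusted p = 0.713). Among 15 tested PDGF and leptin genes 1 had an unadjusted p under 0.05, where the share of all tested genes was 11.3%. The ligands Pdgfa (32.3 and 32.7 CPM), Pdgfb (3.87 and 3.31 CPM) and Pdgfc (14.4 and 14.3 CPM) were read in MS-5 cells themselves, while Lep was at 0 in all 8 libraries.

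Among 12 tested genes that C/EBP beta and delta are known to act on, 4 were called lower in Adh and 0 called higher. By sign alone, called or not, 8 of the 12 were lower and 4 higher in Adh, and 6 had an unadjusted p under 0.05 in edgeR. Of all 12201 tested genes 20 (0.164%) were called lower and 5 (0.041%) called higher, and 11.3% had an unadjusted p under 0.05. The median log2 fold change of the 12 was -0.30, beside -0.00 over all tested genes. This list was chosen with earlier results of these data known. The counts and the median therefore only describe the listed genes, and C/EBP activity was not tested. The 4 are also inflammatory genes under NF-kB: Cxcl5 (61.5 ± 20.7 to 24.7 ± 7.78 CPM) and Cxcl1 (6.99 ± 1.27 to 3.51 ± 0.291 CPM), which attract neutrophils, Ptgs2 (187.2 ± 21.4 to 87.9 ± 13.5 CPM), which makes prostaglandin precursors, and Ccl2 (117.3 ± 8.21 to 76.0 ± 4.82 CPM), which attracts monocytes. Their log2 fold changes were -1.31, -0.99, -1.09 and -0.62 with edgeR adjusted p of 0.0140, 0.0107, 5.73e-05 and 0.000264. The groups did not overlap for any of the 4, beside 6.74% of all tested genes without overlap. The 4 were named because they were called, so this adds little to the calls. DESeq2 called the same 4. Leaving out replicate 3 or 4 of MS-5 alone left 2 calls, Ccl2 and Ptgs2, leaving out replicate 2 of MS-5 alone lost Cxcl5 and leaving out Adh replicate 3 lost Ccl2, with the direction kept each time. Cebpb and Cebpd themselves were not called.

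**Figure D5:**
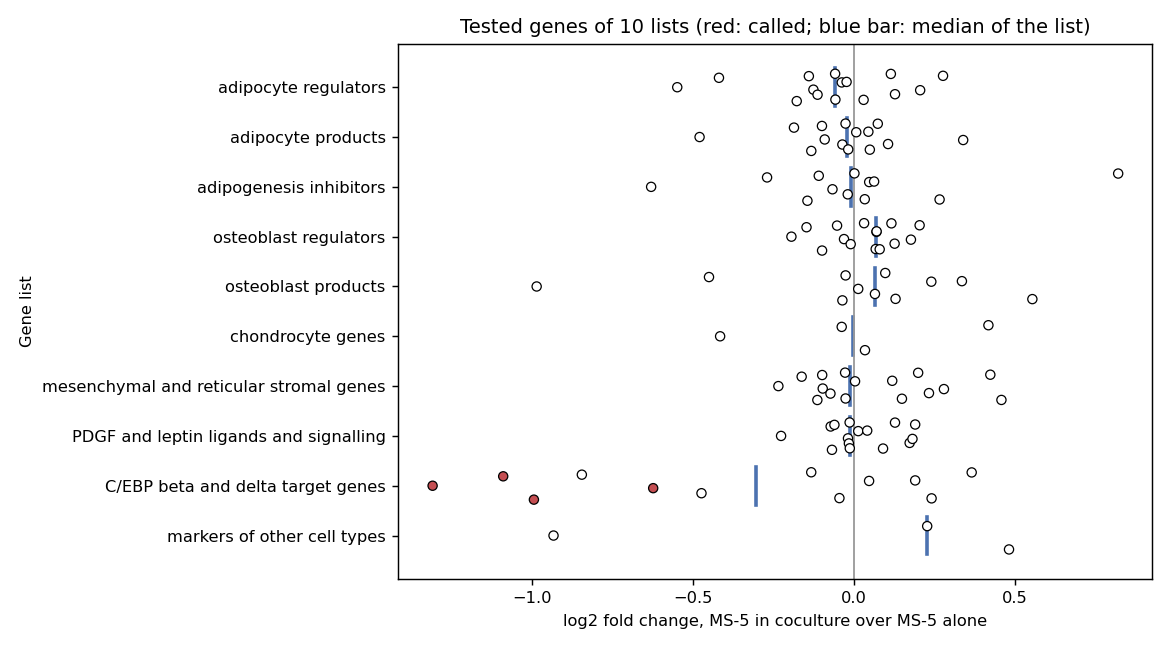
Log2 fold change, Adh minus MS-5 alone, of the tested genes of 10 gene lists, with called genes in red and the list median as a blue bar. The called genes are Cxcl5, Ptgs2, Cxcl1 and Ccl2 in the list of C/EBP beta and delta targets.

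Reads of the human cells bear on the species split, since REC-1 RNA was in the Adh libraries. PPARG, SP7, PDGFRA and MEDAG were at 0 in all 12 REC-1 libraries, and CEBPD, LEPR and PDGFRB had at most 2 counts. CEBPB had 20 to 102 counts, CEBPA 5 to 32 and RUNX2 0 to 24. In the Adh libraries human CEBPB was 3.77% to 8.50% of the CEBPB counts of both species. PDGFA was read in REC-1 cells at a mean of 6.80 CPM in Sep, 6.90 in Susp and 6.43 in Adh, and PDGFD at 7.78, 5.12 and 5.77 CPM. LEP, PDGFB and PDGFC were at 0 in all 12, which allows up to 0.140 to 0.387 CPM.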

How the data were processed

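RNA of MS-5 cells and of the REC-1 groups was sequenced as poly(A) libraries (TruSeq RNA v2, read pairs). The authors separated read pairs by species with Xenome, aligned them with STAR 2.5.1b and counted them on Ensembl genes (GRCm38 and GRCh38) with featureCounts of Subread 1.5.2. The deposited values are whole-number counts per gene, not normalized. The study describes counts of fragments, but in the mouse libraries the value 2 was 2.74 to 3.61 times as frequent as 1, so mates seem mostly to have been counted singly. Of the count columns, 20 were used, and the other 20, of samples outside these groups, were not.

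Mouse counts of 4 Adh and 4 MS-5 alone libraries were fitted in edgeR 4.0.16 (R 4.3.3) with filterByExpr, TMM scaling and the legacy form of the quasi-likelihood F-test. Genes were called at a Benjamini-Hochberg adjusted p of at most 0.05 over all tested genes and a fold of at least 1.5, the study's rule. SE is the log2 fold change over the root of F. Ratios used counts plus 0.5. CPM are TMM-scaled, and levels are per exon length from GENCODE M21. The code was tested on simulated counts. Replicates of a group differed beyond counting noise (chi-square per gene 4.65 to 23.6) and none were identical. Mouse libraries held 10097555 to 34615602 counts, so genes of a few CPM or less are imprecise, and floors cover counting error only.

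The lineage genes and the gene lists were chosen with earlier results of these data known. Named genes were the 10 lineage genes, up to 4 called genes per list with the largest change, at 5 CPM or more, 9 further marker genes, and the 3 genes closest in profile to Medag, of which 1 is not reported here. Pdgfa, Pdgfb, Pdgfc, Lep and Enpp1 were named after their values were seen. Other settings were a block for the replicate number, DESeq2 1.42.0, other scalings, filters and depths, the newer edgeR form, no fold minimum and each library left out. Counts halved, and all settings for the lists and for genes outside the 10, were added after seeing the data.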

Additional observations from a re-analysis of the deposited data

Results flagged for a closer look

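Of 24 sets of 4 values checked for a library far from the other 3, 2 stood out, and chance flags about 1 in 20. Both were replicate 2 of MS-5 alone, the library with the fewest counts. Cebpa was at 32.2 CPM there, against 44.0 to 45.8 CPM in the other 3 (gap over range 0.873), and without this library its log2 fold change was -0.08. Runx2 was at 115.5 CPM there, against 104.4 to 105.7 CPM in the others (gap over range 0.879), and without it the log2 fold change was -0.06.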

How the results depend on the processing

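The number of called genes was 45 with the replicate number as a block, 45 with no filter on low counts and 94 with no fold minimum, against 25. With 1 library left out it ran from 8 to 36, and it was 13, 8 and 11 without replicates 2, 3 and 4 of MS-5 alone and 13 without Adh replicate 3. The number of lineage genes called was 0 after thinning to the smallest library total and 0 with the newer edgeR form, where Medag had a log2 fold change of 0.58 and 0.58, and 0 to 1 with a library left out (Medag 0.51 to 0.66). The C/EBP target genes called numbered 2 to 4 with a library left out. Signs turned only for values near 0: Pdgfrb was 0.000957 with no filter and -0.033 to 0.010 with a library left out, Cebpa was -0.046 thinned and -0.085 to 0.065, Cebpb -0.022 to 0.23, Fabp4 -0.059 to 0.047, the Cebpa to Cebpb ratio -0.20 to 0.038 and the Pparg to Runx2 ratio -0.051 to 0.071. Same-numbered libraries correlated at r = 0.0333 to 0.286, over 0.1 for 2 of 4 numbers, and 3 of 4 MS-5 alone libraries correlated best with their own number. These values do not settle whether the numbers pair the libraries. The main fit and the exact permutation tests did not pair them. In the block fit the SE was smaller for each of the 8 lineage genes. Medag there had a log2 fold change of 0.59 with edgeR adjusted p = 0.000108. Pdgfra had 0.19 with edgeR adjusted p = 0.0331, still under the fold minimum. The other settings kept the direction and call of each of the 8 lineage genes. At these depths changes of Sp7 and Lepr were not detectable.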

Other observations

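Replicate 1 was the highest library of its group for Pdgfra, Pdgfrb and Medag, and the lowest for Cebpd, in both MS-5 alone and Adh. Adh replicate 1 also had the largest share of human counts (28.2%). Adipoq was read only in replicate 1 of each group, with 2 and 4 counts.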
